A study of Homo sapiens with 6 samples.

Results

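Long noncoding RNAs are transcripts made, spliced and often polyadenylated like messenger RNAs but with no known protein product. A gene of this kind that lies between coding genes and has no named function receives the symbol LINC with a number. Some long noncoding RNAs act in the nucleus near their own locus, others act in the cytoplasm, and for most numbered LINC genes no role is known. They are usually transcribed at low levels and in fewer cell types than coding genes.

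The numbered LINC genes described here are the 175 genes of 2063 such genes listed on chromosomes 1 to 22 that had at least 10 counts in at least 3 of 6 RNA-Seq libraries. The deposited table lists 63677 genes in all. The members were thus chosen by measured counts, so their being expressed is not a result. The libraries came from RPMI8226, an established human multiple myeloma line, treated for 6 hr with 100 nM GST-PTR1 or with 100 nM GST as the control, 3 libraries each. GST-PTR1 joins glutathione-S-transferase to the PTR1 domain of the extracellular matrix protein HAPLN1, and GST is that fusion partner alone. Both groups carry the label WT and are 1 line at 1 time and dose, made with a strand-specific mRNA kit.

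The smallest GST library held 15202503 counts and the largest 23453473, and for GST-PTR1 the totals ran from 22874133 to 44688737. Libraries are numbered 1 to 3 within a treatment by ascending total, and values are listed in that order. All 8 plasma cell markers examined were expressed. Their summed level ranged from 4066 to 4773 CPM (counts scaled to library totals with TMM factors) with GST and from 3938 to 4885 with GST-PTR1. SDC1, TNFRSF17 and XBP1 were lower with GST-PTR1, PRDM1 and IRF4 were higher, and CD38, MZB1 and JCHAIN did not pass the test. T cell, stromal and endothelial marker sums stayed at or under 0.521 CPM in every library, and monocyte markers at or under 1.32 CPM. EPCAM, an epithelial marker, was at 61.5 to 76.9 CPM in both treatments, and the epithelial sum at 66.3 to 83.0 CPM. Erythroid markers summed to 1.66 to 2.92 CPM, nearly all from HBA1. In bulk RNA, fewer cells of a kind and less RNA per cell cannot be told apart. NFKBIA, the NF-κB inhibitor gene that NF-κB itself induces, rose by a log2 fold change of 3.02.

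Of the other LINC genes, 1331 had 0 counts in every library and 557 had some counts below the rule. LINC00674 and LINC01315 stood just inside the rule, each with a third-highest count of 10, and LINC01521 and LINC02021 just outside it with 9. Of the 175 members, 132 reached 10 counts in all 6 libraries. The rule reads raw counts, so a member that passed through 1 treatment alone was chosen partly for a difference in raw counts, and the larger GST-PTR1 totals bear on this. LINC02605, LINC00944, LINC02541, LINC01686, LINC02986, LINC02936 and LINC02770, 7 genes in all, reached 10 counts in GST-PTR1 libraries alone. LINC02983, LINC01315 and LINC02724, 3 genes in all, reached it in GST libraries alone. LINC02770 had 0.480, 0.331 and 0.321 CPM with GST and 0.449, 0.366 and 0.254 CPM with GST-PTR1, so that its scaled levels overlapped, and LINC02936 overlapped as well. With every library scaled to the smallest total, 143 members would remain.

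Promoter windows of 4 members are shown because 3 of them belong to the largest increases and 1 to the largest decrease. They are RefSeq sequences of GRCh38.p14, from 250 bases before to 50 bases after the annotated start, written 5′ to 3′ on the gene's strand. Gene positions elsewhere are those of the deposited table, on GRCh37, and were not converted. Capitals mark motif matches, and a window without capitals held none of the 5 motifs searched.
LINC02541 (chr6:113650026-113650325, minus strand): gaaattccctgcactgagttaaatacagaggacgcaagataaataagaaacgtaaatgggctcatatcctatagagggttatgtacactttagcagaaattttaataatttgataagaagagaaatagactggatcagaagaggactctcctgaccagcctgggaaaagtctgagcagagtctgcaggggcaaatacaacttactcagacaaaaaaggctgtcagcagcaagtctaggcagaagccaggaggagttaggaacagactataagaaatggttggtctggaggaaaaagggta
LINC00511 (chr17:72640423-72640722, minus strand): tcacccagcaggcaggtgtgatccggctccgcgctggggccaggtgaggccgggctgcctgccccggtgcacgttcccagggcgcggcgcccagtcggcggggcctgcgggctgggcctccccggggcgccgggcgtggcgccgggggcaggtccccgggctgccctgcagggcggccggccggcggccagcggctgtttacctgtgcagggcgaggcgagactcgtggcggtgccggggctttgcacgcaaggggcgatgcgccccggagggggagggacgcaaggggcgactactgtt
LINC01686 (chr1:182614890-182615189, plus strand): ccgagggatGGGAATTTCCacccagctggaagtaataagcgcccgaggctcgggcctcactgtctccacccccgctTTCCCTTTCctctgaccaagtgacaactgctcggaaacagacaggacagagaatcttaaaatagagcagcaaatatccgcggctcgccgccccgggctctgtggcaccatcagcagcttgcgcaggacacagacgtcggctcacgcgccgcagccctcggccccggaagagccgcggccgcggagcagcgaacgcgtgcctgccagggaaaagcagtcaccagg
LINC02983 (chr7:5428878-5429177, minus strand): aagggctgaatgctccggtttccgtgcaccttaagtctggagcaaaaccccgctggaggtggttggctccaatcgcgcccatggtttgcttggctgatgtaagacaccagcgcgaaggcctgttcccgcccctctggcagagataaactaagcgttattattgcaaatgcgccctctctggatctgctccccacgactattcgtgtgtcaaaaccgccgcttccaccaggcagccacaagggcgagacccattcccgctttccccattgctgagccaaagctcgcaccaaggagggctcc

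The window of LINC01686 held an NF-κB consensus match from -241 to -232 on the plus strand. It also held the core of an interferon-stimulated response element from -174 to -166 on the minus strand. No other window taken by size of change held the NF-κB consensus. Of 35116 windows in the whole table, 5.91% held the NF-κB consensus on either strand and 8.11% held the core GAAANNGAA. RefSeq windows were found for 110 members, as 124 windows in all since some genes have several starts. Of these windows, 5 held the NF-κB consensus, 12 the AP-1 motif TGANTCA, 8 the GAS motif TTCNNNGAA, 12 the core GAAANNGAA and 10 the E-box CACGTG. The shares over all windows were 7.71% for AP-1, 7.66% for GAS and 7.26% for the E-box. Among the 9 windows of genes that rose, 2 held the response element core and 1 each held the NF-κB consensus, the AP-1 motif, the GAS motif and the E-box. Among the 23 windows of genes that fell, 0 held the NF-κB consensus and 2 held each of the other motifs. The GAS motif and the response element core can share bases with other motifs, and a match is only a match of letters.

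LINC genes contributed little of the RNA counted. Their summed counts were 0.103 to 0.123% of each GST library and 0.0873 to 0.0917% of each GST-PTR1 library. On TMM-scaled totals the sum was 1122, 975 and 1017 CPM with GST and 941, 955 and 990 CPM with GST-PTR1. The lowest GST sum lay below the highest GST-PTR1 sum, so the treatments overlapped. LINC01287, a gene of chromosome 7, gave between 21.5 and 27.7% of these counts on its own. Without it the sums were 867, 742 and 774 CPM with GST and 739, 727 and 715 CPM with GST-PTR1, and these did not overlap.

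Per length, LINC01287 was also the most abundant member, at a mean of 68.6 RPKM (CPM per kilobase of exon) over the 6 libraries. It was followed by LINC01229 at 26.7 RPKM, LINC02802 at 16.7, LINC00996 at 15.7 and LINC00467 at 14.8. None of these 5 abundant genes passed the test. LINC01287 had 255, 233 and 243 CPM with GST and 202, 228 and 275 CPM with GST-PTR1, and the treatments overlapped (log2 fold change -0.05 ± 0.12 SE). LINC01229 lies 75.4 kb from MAF, a transcription factor gene translocated in some myelomas. LINC01229 had 69.3, 56.1 and 58.5 CPM with GST and 66.2, 66.4 and 69.2 CPM with GST-PTR1, and its log2 fold change was 0.13. MAF had 754, 537 and 600 CPM with GST and 493, 473 and 354 CPM with GST-PTR1, without overlap (log2 fold change -0.52 ± 0.16 SE, edgeR adjusted p = 0.0418). The median member was at 0.845 RPKM, 81 members exceeded 1 RPKM and 13 exceeded 5 RPKM. Between libraries of 1 treatment, the median coefficient of variation of the members' CPM was 17.3% with GST and 17.6% with GST-PTR1.

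The comparison of GST-PTR1 with GST asks which genes respond to the PTR1 domain. Of the 170 members that passed the filter on low counts, 12 rose and 35 fell with GST-PTR1 past the threshold, an adjusted p below 0.05 by the quasi-likelihood test of edgeR (Benjamini-Hochberg over 16926 genes). Of all genes tested, 9.15% were higher and 11.4% lower by this rule, against 7.06% and 20.6% of the members. At a change of at least 2-fold the members counted 8 higher and 19 lower, together 15.9%. Of all genes, 3.68% were higher and 3.85% lower, together 7.53%. All genes with a mean count in the interquartile range of the members gave 12.1% together. Coding genes in that range gave 18.3%, and LINC genes in it 14.3%. LINC02605, LINC00944, LINC02541, LINC01686 and LINC02986, among the 8, passed the count rule through GST-PTR1 libraries alone. LINC02983, LINC01315 and LINC02724, among the 19, passed it through GST libraries alone. Of the 132 members with at least 10 counts in all 6 libraries, 2 were higher and 12 lower at 2-fold. In 82 members (48.2%) the libraries of the treatments did not overlap, beside 40.4% of all genes. In the members' interquartile range of mean counts, this share was 39.2% for all genes. It was 50.4% for coding genes in that range and 46.4% for LINC genes. The median log2 fold change was -0.34 over the members and 0.01 over all genes tested. The other 5 members (LINC02770, LINC01353, LINC02506, LINC01901 and LINC01644) had mean counts of 8.83 to 11.2 and were not tested.

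The split between higher and lower calls moved with the scaling. Higher genes were 25.5% of the calls with TMM factors and with DESeq2's size factors. With library totals, which lowered the median of all genes by 0.20 on the log2 scale, 7 members were higher and 69 lower, so that higher genes were 9.21% of the calls. The members' median was then -0.54, and that of all genes -0.19.

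**Figure D1:**
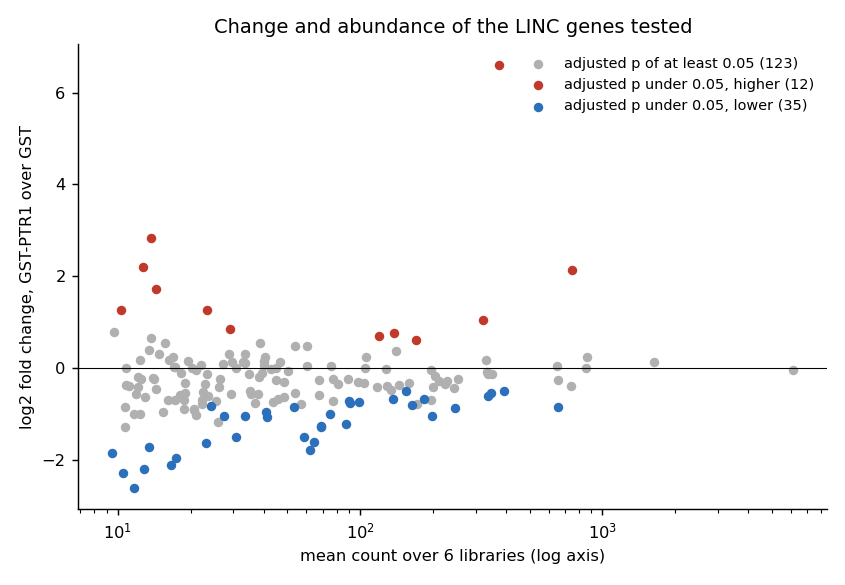
Log2 fold change (GST-PTR1 over GST) of the 170 LINC genes tested against their mean count over 6 libraries, on a log axis, each point 1 gene. The 12 red and 35 blue points have an adjusted p under 0.05, and LINC02605 stands alone at the top.

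The same values were taken for other gene classes of these libraries. All 4032 genes whose mean count lay within the interquartile range of the members (18.8 to 119 counts) had a median log2 fold change of -0.12, with 5.90% higher and 14.7% lower. Coding genes in that range had a median of -0.30. Of these 1781 coding genes, 9.15% were higher and 21.2% lower. The 84 LINC genes in that range had a median of -0.38, with 2 higher and 18 lower. The 72 LINC genes with a mean of at least 50 counts had a median of -0.34, with 6 higher and 21 lower. More of these passed the test (37.5%) than of all members tested (27.6%), and no share of all genes at that level was taken. Antisense RNA genes, named for the coding gene they face, counted 11 higher and 74 lower of 343, with a median of -0.34. Divergent transcripts, which start beside a coding gene and run the other way, counted 5 higher and 48 lower of 168, with a median of -0.53. Host genes of small nucleolar RNAs counted 4 higher and 1 lower of 22. Differences between these classes were not tested.

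**Figure D2:**
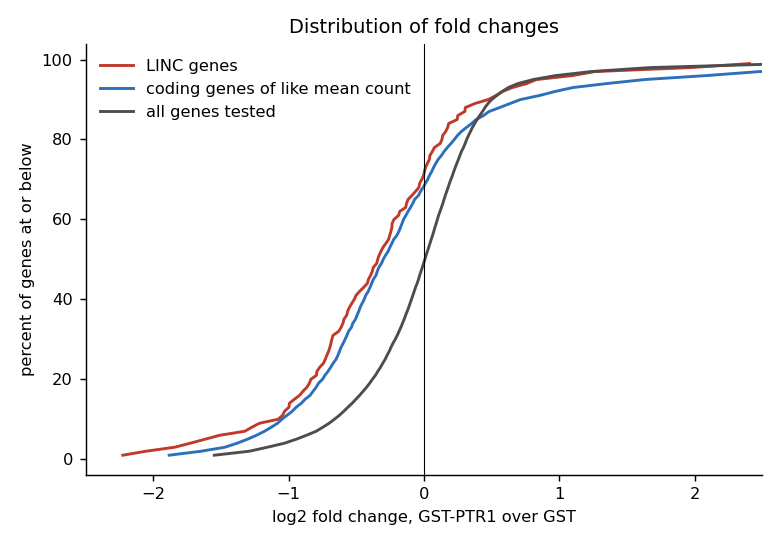
Percent of genes at or below each log2 fold change (GST-PTR1 over GST), for the LINC genes tested, for coding genes with a mean count within the members' interquartile range, and for all genes tested. The curve of the LINC genes runs near that of the coding genes of like count in the middle but not in the tails. At percentile 95 the LINC genes are at 0.83 and these coding genes at 1.63, and at percentile 5 at -1.62 and -1.30. The median of the LINC genes, -0.34, lies to the left of the 0.01 of all genes.

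Calls are listed here by type and place of the genes, beside 9.15% higher and 11.4% lower over all genes tested. Of 139 tested members typed as lincRNA in the reference annotation, 10 were higher and 30 lower. Of 12 typed as processed transcripts, 2 were higher and 2 lower. Among 9 typed as antisense, 0 were higher and 2 lower. Chromosome 2 held the most members, 19, of which 0 were higher and 1 was lower. Of the 18 members on chromosome 1, 1 was higher and 4 lower, and of the 12 on chromosome 7, 0 were higher and 4 lower. Shares over all genes of these types and chromosomes were not taken, so no difference can be read from these counts.

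LINC02605, a gene of chromosome 8, had the largest increase of all members. It had raw counts of 4, 6 and 6 with GST and of 515, 773 and 949 with GST-PTR1. These are 0.24, 0.284 and 0.24 CPM with GST and 23.1, 28.3 and 24.1 CPM with GST-PTR1. All 3 GST-PTR1 libraries stood far above all 3 GST libraries, and the log2 fold change was 6.60 ± 0.21 (SE, edgeR adjusted p = 8.08e-09). LINC02605 passed the count rule through GST-PTR1 libraries alone, so its lack of overlap came partly from the way it was chosen. Across the alternatives in which it was tested, it kept between 6.41 and 6.68.

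The nearest coding gene listed beside LINC02605 is IL7, which encodes a growth factor of lymphoid cells. IL7 lies 32.0 kb away on the other strand and was singled out after its values were seen. IL7 had 0, 1 and 1 counts with GST and 8, 19 and 21 counts with GST-PTR1. Its counts were too low for the filter, so it has no value in the fit used here. In the alternative fits that tested IL7, its log2 fold change was 3.49 to 4.24 (edgeR adjusted p from 3.22e-06 to 0.0140). Summed over libraries, 48 counts against 2 gave a ratio of 16.9 per scaled total, with an exact 95% interval from 4.43 to 144 that covers counting error only. The nearest coding gene that was tested, ZC2HC1A, lies 118 kb away and did not pass the test (log2 fold change 0.54, edgeR adjusted p = 0.17).

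LINC00511, which has been described as raised in several kinds of tumor, had the highest mean count among the increases. It lies on the minus strand of chromosome 17 (GRCh37, 70319264 to 70636611). LINC00511 had 9.84, 9.70 and 10.1 CPM with GST and 45.9, 40.6 and 44.0 CPM with GST-PTR1. The values within each treatment were close together and far from the other treatment, and the log2 fold change was 2.13 ± 0.11 (SE, edgeR adjusted p = 3.37e-07). SLC39A11, a zinc transporter gene whose end lies 5.48 kb upstream on the same strand, had a log2 fold change of -0.02 (edgeR adjusted p = 0.935).

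Some of the other increases were of scarce transcripts. LINC00944 and LINC02541 passed the count rule through GST-PTR1 libraries alone, so their separation came partly from the way they were chosen. LINC00944 on chromosome 12 had 1, 5 and 1 counts with GST and 20, 16 and 39 with GST-PTR1, without overlap (log2 fold change 2.84 ± 0.53 SE, edgeR adjusted p = 0.00337). LINC02541 on chromosome 6, whose promoter window is shown above, had 3, 4 and 3 counts with GST and 20, 23 and 23 with GST-PTR1. It was at or near the detection floor of 3 counts in each GST library, and its log2 fold change was 2.21 ± 0.40 (SE, edgeR adjusted p = 0.00316). HDAC2, the nearest coding gene tested, lies 283 kb from LINC02541, encodes a histone deacetylase and did not pass the test (log2 fold change 0.35).

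LINC01215 on chromosome 3 had 8.40, 7.005 and 8.34 CPM with GST and 19.1, 14.9 and 15.3 CPM with GST-PTR1, which is an increase of 1.05 ± 0.15 (SE) on the log2 scale. Its 3 treated libraries all exceeded its 3 control libraries (edgeR adjusted p = 0.000577). LINC00881 on chromosome 3 had 0.78, 0.663 and 0.882 CPM with GST and 1.66, 1.13 and 1.47 CPM with GST-PTR1 (log2 fold change 0.86 ± 0.27 SE, edgeR adjusted p = 0.0435). This call did not stand in 11 of 14 alternatives, among them every omission of 1 library, where the largest edgeR adjusted p was 0.116. LINC02642 on chromosome 10 and LINC00641 on chromosome 14 completed the increases, with log2 fold changes of 0.69 and 0.62. LINC02642 lost its call with library totals and without GST library 3. LINC00641 lost its call with library totals and without GST library 2, GST library 3 or GST-PTR1 library 2 (edgeR adjusted p up to 0.158).

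**Figure D3:**
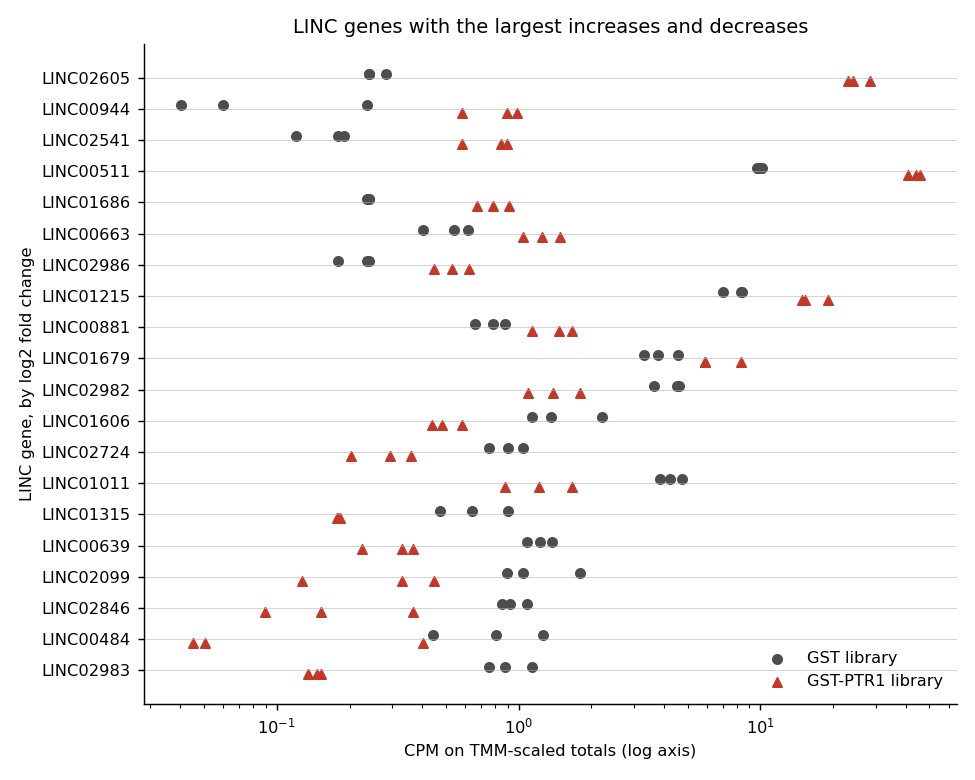
CPM on TMM-scaled totals, on a log axis, in each of 3 GST libraries (grey circles) and 3 GST-PTR1 libraries (red triangles) for the 10 largest increases and 10 largest decreases among LINC genes with an adjusted p under 0.05. No gene shown had overlapping treatments, and LINC02605 moved from under 0.3 CPM to above 20 CPM.

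LINC02983 fell the most. It lies on the minus strand of chromosome 7 (GRCh37, 5465908 to 5468558), 0.863 kb upstream of TNRC18 on that strand. LINC02983 had 19, 16 and 22 counts with GST and 3, 4 and 6 with GST-PTR1, which are 1.14, 0.757 and 0.882 CPM against 0.135, 0.146 and 0.152 CPM. The treatments stood apart, and the log2 fold change was -2.61 ± 0.36 (SE, edgeR adjusted p = 0.000527). LINC02983 passed the count rule through GST libraries alone, so its separation came partly from the way it was chosen. TNRC18 had a log2 fold change of -0.44 (edgeR adjusted p = 0.0808).

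LINC00484 on chromosome 9 came next in size, but it varied between libraries. LINC00484 had 21, 17 and 11 counts with GST and 1, 11 and 2 with GST-PTR1, so that GST-PTR1 library 2 lay near the lowest GST library. Its log2 fold change of -2.30 ± 0.66 (SE, edgeR adjusted p = 0.0321) no longer passed when either of 2 GST libraries or either of the other two GST-PTR1 libraries was left out, with adjusted p up to 0.104. LINC02846 on chromosome 9, LINC02099 on chromosome 8 and LINC00639 on chromosome 14 fell by 2.19, 2.12 and 1.95 on the log2 scale. Each had no more than 13 counts in any GST-PTR1 library and at least 18 in every GST library.

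LINC01011 was the best counted of the 10 largest decreases apart from LINC02982. It overlaps NQO2, a quinone reductase gene, on the same strand of chromosome 6, and 10.4% of its exon bases belong to another gene on that strand. LINC01011 had 4.74, 4.21 and 3.85 CPM with GST and 1.66, 0.879 and 1.22 CPM with GST-PTR1, without overlap (log2 fold change -1.78 ± 0.24 SE, edgeR adjusted p = 0.000447). NQO2 had a log2 fold change of -0.16 (edgeR adjusted p = 0.554). LINC01315, LINC02724 and LINC01606 fell by 1.85, 1.71 and 1.63 on the log2 scale.

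LINC00847 on chromosome 5 had the smallest adjusted p of the decreases and was named after its values were seen. It had 11.04, 11.1 and 11.5 CPM with GST and 5.61, 5.31 and 5.35 CPM with GST-PTR1 (log2 fold change -1.05 ± 0.13 SE, edgeR adjusted p = 0.000244). Of the 123 members that did not pass the test, 36 had a positive and 87 a negative log2 fold change.

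The nearest tested coding gene was found for each of the 170 members from the deposited gene positions. In 5 pairs the genes overlapped, in 39 they lay within 10 kb, in 63 from 10 to 100 kb apart and in 63 farther, with a median of 46.8 kb. Within 100 kb there were 107 pairs. In 13 of these pairs both genes passed the test, 5 with both higher, 7 with both lower and 1 with opposite directions. As a background, each coding gene was paired with its own nearest coding gene. Coding genes nearest to each other thus enter from both sides, unlike the LINC pairs. Within 100 kb, 651 of 10300 such coding pairs had both genes called. Of these, 77.7% went the same way, beside 92.3% of the 13 LINC pairs. At any distance, 12 of 17 LINC pairs with both genes called went the same way (70.6%), beside 75.9% of 718 coding pairs. Within 100 kb the neighbor passed the test in 29.9% of the 107 LINC pairs and in 21.8% of the coding pairs. Without GST-PTR1 library 2, 5 pairs at any distance had both genes called in the same direction, in place of 12. Without GST library 3 or GST-PTR1 library 3, 6 did.

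LINC01686 and RGS16 showed the largest joint increase. They lie 10.8 kb apart on chromosome 1 and are transcribed away from each other. RGS16, which encodes a GTPase activator that ends signals of G protein-coupled receptors, had 35.2, 29.4 and 33.0 CPM with GST and 168, 170 and 182 CPM with GST-PTR1 (log2 fold change 2.41 ± 0.11 SE, edgeR adjusted p = 8.81e-08). LINC01686 had 4, 5 and 6 counts with GST and 15, 25 and 31 with GST-PTR1 (log2 fold change 1.71 ± 0.34 SE, edgeR adjusted p = 0.00497). Both genes separated the treatments completely. LINC01686 passed the count rule through GST-PTR1 libraries alone, so its separation came partly from the way it was chosen.

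LINC00663 and ZNF506, a zinc finger gene, rose together on chromosome 19, where LINC00663 begins 9.42 kb past the end of ZNF506 on the same strand. LINC00663 had 9, 13 and 10 counts with GST and 33, 34 and 41 with GST-PTR1 (log2 fold change 1.26 ± 0.30 SE, edgeR adjusted p = 0.0129). Its call was lost without GST library 3 (edgeR adjusted p = 0.068). ZNF506 had 12.1, 12.02 and 10.7 CPM with GST and 35.2, 46.2 and 41.6 CPM with GST-PTR1, a log2 fold change of 1.82.

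LINC01679 lies 52.2 kb past SIK1 on the same strand of chromosome 21. LINC01679 had 3.78, 3.31 and 4.57 CPM with GST and 8.30, 5.89 and 5.91 CPM with GST-PTR1 (log2 fold change 0.77 ± 0.20 SE, edgeR adjusted p = 0.0201). SIK1, a salt-inducible kinase gene, had a log2 fold change of 1.38. LINC01679 lost its call under library totals, without GST library 2, without GST-PTR1 library 1 and in 1 of the fits of 4 libraries.

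LINC02986 lies 15.04 kb past ZBTB10, a zinc finger transcription factor gene, on the same strand of chromosome 8. LINC02986 had 3, 5 and 6 counts with GST and 10, 17 and 21 with GST-PTR1, and its log2 fold change of 1.25 ± 0.37 (SE, edgeR adjusted p = 0.035) did not pass in 10 of 13 alternatives. ZBTB10 had a log2 fold change of 1.42. LINC02986 also passed the count rule through GST-PTR1 libraries alone, and was thus chosen partly for its difference. LINC00641 and HNRNPC, which encodes a pre-mRNA binding protein and ends 2.24 kb before it, had log2 fold changes of 0.62 and 0.58. LINC00641 lost its call in 4 of 12 planned fits.

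Among the pairs that fell together, LINC02982 and NKD2 lie 11.5 kb apart on chromosome 5 and are transcribed away from each other. LINC02982 had 4.501, 3.64 and 4.61 CPM with GST and 1.79, 1.39 and 1.09 CPM with GST-PTR1 (log2 fold change -1.60 ± 0.23 SE, edgeR adjusted p = 0.000638). NKD2, which encodes an inhibitor of Wnt signaling, had 102, 75.7 and 93.5 CPM with GST and 54.1, 52.3 and 46.1 CPM with GST-PTR1, a log2 fold change of -0.83. Neither gene overlapped between treatments.

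LINC00920 and TK2, the mitochondrial thymidine kinase gene, lie 95.9 kb apart on chromosome 16 and had log2 fold changes of -1.28 and -1.09. LINC01978 and TBC1D16, which encodes a GTPase-activating protein for Rab proteins, had -1.51 and -0.74, and TBC1D16 passed narrowly (edgeR adjusted p = 0.0495). LINC00888 and KLHL6, a ubiquitin ligase adaptor gene of B cells, had -0.99 and -0.49, and LINC02980 and TRIM38, a ubiquitin ligase gene of innate immunity, had -0.67 and -0.40. LINC02980 lost its call without GST library 3 or GST-PTR1 library 3 (edgeR adjusted p = 0.0547 and 0.0516). LINC00461, host of a miR-9 precursor, and MEF2C, a transcription factor gene, had -0.73 and -0.45. MEF2C also passed narrowly (edgeR adjusted p = 0.0473). LINC00461 lost its call without GST library 1, GST-PTR1 library 2 or GST-PTR1 library 3 (edgeR adjusted p up to 0.0868). The 1 pair that diverged within 100 kb was LINC02709, which fell by 1.03 on the log2 scale, with SWAP70, a signaling gene of B cells, which rose by 0.77.

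**Figure D4:**
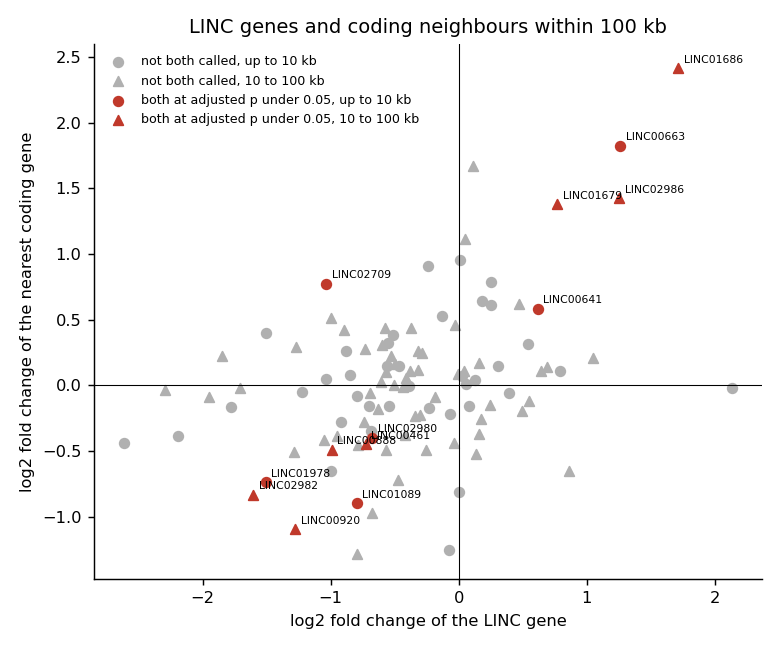
Log2 fold change (GST-PTR1 over GST) of each LINC gene against that of its nearest tested coding gene, for the 107 pairs within 100 kb, with circles for pairs up to 10 kb apart and triangles for the others. Red marks the 13 pairs in which both genes had an adjusted p under 0.05, of which 12 lie in the quadrants of equal sign.

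Of the 12 pairs that moved the same way, 6 had the LINC gene downstream of the coding gene on the same strand, among 46 pairs of that layout within 100 kb. Divergent pairs gave 2 of 22, convergent pairs 3 of 18 and overlapping pairs on the same strand 1 of 3, and the 16 pairs with the LINC gene upstream gave 0. Whether reads from a coding transcript that ran past its end were counted on a LINC gene was not tested. In 23 further pairs within 100 kb the LINC gene passed the test and its neighbor did not, and 10 of these had the same sign. In 19 pairs the neighbor alone passed, and 13 had the same sign. TRAF5, a signaling adaptor gene 7.86 kb from LINC00467, fell by 1.25 on the log2 scale while LINC00467 was at -0.08. GIMAP8, a lymphocyte GTPase gene 2.49 kb from LINC00996, had 0.78 while LINC00996 had 0.25.

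Beyond 100 kb, 4 of 63 pairs had both genes called, and all 4 went in opposite directions: LINC02257 with DUSP10, LINC00944 with TMEM132B, LINC01192 with NMD3 and LINC01410 with ZNG1E. These pairs were named after their values were seen. LINC02257 lost its call in 8 of 12 planned fits, among them every omission of 1 library (edgeR adjusted p from 0.0525 to 0.136). Over the 107 pairs within 100 kb, log2 fold changes of LINC gene and neighbor correlated with Pearson's r = 0.42 and a Spearman coefficient of 0.35, beside 0.23 and 0.16 for 10300 coding pairs. Over the 63 pairs beyond 100 kb, Pearson's r was -0.0034 and the Spearman coefficient -0.19. Pairs share the libraries of 1 fit, and genes are not independent replicates. Over all 170 pairs r was 0.24, and 0.24 over 169 pairs without LINC02605. It was 0.41 to 0.45 without 1 of the GST libraries or without GST-PTR1 library 1, where IL7 passed the filter and took the place of ZC2HC1A beside LINC02605.

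LINC genes also lie near each other. There were 11 pairs of tested members next to each other within 100 kb, of which 9 had log2 fold changes of the same sign and 0 had both genes called. LINC00881 and LINC00880, which overlap in position on chromosome 3, went in opposite directions, with log2 fold changes of 0.86 and -0.57, of which the second did not pass the test (edgeR adjusted p = 0.0924). LINC01606 and LINC00588 on chromosome 8, 39.2 kb apart, had -1.63 and -1.02, and LINC00588 did not pass the test (edgeR adjusted p = 0.0883).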

How the data were processed

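RNA-Seq was performed on 6 libraries. The authors deposited raw counts per gene, made with featureCounts 1.5.0-p1 by strand on the Ensembl 75 annotation of GRCh37, and the processing notes also name Subread, FastQC and limma. The aligner's settings are not given in the sources used here. Column names gave the treatment, but their numbers could not be matched to the replicate labels.

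Symbols were matched by Ensembl identifier (52181 genes), and types and the RefSeq windows came from GRCh38 tables. For genes with several RefSeq starts, the window nearest the GENCODE 29 start was printed. Counts were fitted in R 4.3.3 with edgeR 4.0.16 (TMM, filterByExpr, glmQLFit and glmQLFTest, Benjamini-Hochberg over 16926 genes), after tests on simulated data. The tables were made with Python 3.11.15 and pandas 2.3.3. Exact permutation tests of 3 against 3 libraries cannot go below p = 0.1. Coding neighbors were the nearest tested coding genes by gene body. No 2 libraries agreed within sampling noise (smallest chi-square per gene 8.38). 3 counts were taken as the detection floor, and floors cover counting error only.

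The members, lists and tests were chosen with earlier results of these data known. Genes were named as the 10 largest increases and 10 largest decreases at an adjusted p under 0.05, the 5 members of highest mean RPKM, up to 10 pairs with both genes called within 100 kb, the 2 genes on either side of the count rule, and members that reached 10 counts in 1 treatment alone. Others were named after their values were seen. Values of 1 pair that fell together are not reported here. Alternatives were other size factors, DESeq2 1.42.0, limma 3.58.1 voom, other filters, omission of each library, other member rules, distances and a fold threshold of 1.5. Fits of 4 libraries with and without a replicate block, and the correlation without LINC02605, were added after seeing the data.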

Additional observations from a re-analysis of the deposited data

How the results depend on the processing

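Replicate numbers of the labels could not be matched to columns. In 4 libraries the column name carries a number found in both treatments. Deviations of same-numbered libraries from their treatment means correlated with r = -0.028 and 0.253. Those of differently numbered libraries correlated with r from -0.469 to 0.365. The 2 fits of the 4 libraries were added after seeing the data. With the number as a replicate block, 10 members were higher and 36 lower, and r over all pairs was 0.43; without it r was 0.42.

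Leaving out 1 library at a time gave 7 to 10 higher and 25 to 35 lower members, 6 to 7 and 17 to 21 at 2-fold, a median of -0.39 to -0.25, 5 to 14 pairs called in the same and 1 to 4 in opposite directions, and r from 0.21 to 0.45. Library totals gave 7 higher and 69 lower members, 34 lower at 2-fold, a median of -0.54 and 24 pairs called in the same direction. At least 10 counts in every library, as a filter or as the member rule, left 6 higher, and 2 higher and 12 lower at 2-fold. Scaling to the smallest total left 4 higher at 2-fold. Members that share no exon base with another gene gave 22 lower, 11 lower at 2-fold and 6 pairs in the same direction. A threshold of 1.5-fold gave 32 lower. Pairs within 100 kb had r = 0.42 and 1 opposite call, and pairs within 10 kb r = 0.38, 5 same and 1 opposite.

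Of 434 values under alternatives, taken for the genes that the naming rule selected, 395 kept direction and side of the threshold, 32 lost the call and 7 changed sign, all in genes that were not called: LINC00467 (-0.26 to 0.028 over omissions of 1 library, above 0 without GST-PTR1 library 1 or 2, and 0.013 in 4 libraries), LINC01229 (-0.065 with library totals) and LINC01287 (-0.16 to 0.047 over omissions, above 0 without GST-PTR1 library 1, 0.074 with the replicate block and 0.080 in 4 libraries without it). Of the 47 calls, 17 stood in all 12 planned fits, 2 of them higher (LINC00511 and LINC01215). In at least 1 planned fit, 20 were tested and lost, 6 of them higher, and 13 were not tested. The 20 and the 13 share some calls. Depth limits the scarce members: at 3 to 10 counts in a library, small changes could not be detected, and the causes of the lost calls were not tested.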
